A study of Yucca flaccida with 12 samples.

Results

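The zone by phenotype interaction asks which genes of a leaf have a centre-edge difference that depends on whether the leaf is variegated. It is the difference of differences, (VC minus VE) minus (UC minus UE), where VC and VE are the centre and edge of variegated leaves and UC and UE the centre and edge of unvariegated leaves. It was measured on all 12 libraries of the series, 3 per group, and 59225 of the 185746 genes were abundant enough to test. All 4 groups were in vitro plants of Yucca flaccida 'Golden Sword', untreated, sampled from the second youngest leaf of a plant. VC and VE carried the variegated leaf phenotype and UC and UE the unvariegated one. Polyadenylated RNA was sequenced, and each gene is a cluster of assembled transcripts. The labels give neither the pale zone nor the number of plants behind the 3 libraries of a group, so p-values reflect the spread of these libraries alone, part of which may be technical.

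Variegated leaves carry tissue zones of different colour, usually because the cells of a zone differ in their plastids, the organelles that hold chlorophyll. In many variegated monocots such zones trace back to meristem cell layers of different genetic make-up. Horticulturally, 'Golden Sword' is known for leaves with a yellow centre and a green margin. Centre and edge also differ in an even-coloured leaf, through the midrib, thickness and age of the tissue. Subtracting the unvariegated zone difference therefore removes what position alone contributes, as far as it is additive on the log2 scale. The files pair no gene identifier with a name or sequence, so genes are described by their levels and the shape of their response, and neither gene functions nor cell type markers could be checked. In pieces of whole tissue, fewer cells of a type and less RNA per cell cannot be told apart.

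Total estimated counts lay between 13139086 and 20306020 per library. The 100 most abundant genes of a library took 23.3% ± 1.85 of its counts in VC, 31.8% ± 0.851 in VE, 24.7% ± 1.23 in UC and 26.5% ± 1.48 in UE (SD, n = 3), a centre-minus-edge difference of -8.50 percentage points in variegated and -1.87 in unvariegated leaves. VE1 stood apart in genes with at least 100 counts over the variegated and at most 3 over the unvariegated libraries, which held 0.941% of its counts against 0.0501% to 0.131% in the other 5 variegated libraries. None of the genes called below belongs to that set. Replicates of a group differed by far more than sampling noise, with a chi-square per degree of freedom of 9.19 to 30.4.

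The centre-edge difference depended on phenotype for 57 genes, which is 0.0962% of those tested. The most frequent form was a gene with a low level in the variegated centre and higher levels in the other 3 groups. In 36 genes, 0.0608%, the difference was more negative in variegated leaves, and in 21 genes, 0.0355%, it was more positive (edgeR's quasi-likelihood test, Benjamini-Hochberg adjusted p below 0.05 over all 59225 genes). Negative interactions were also the larger ones. Their median was -3.13 on the log2 scale, against 1.90 for the positive ones and -0.01 over all genes tested. Setting groups at 0 counts to a floor of 3 altered 2 genes in each direction. All of these lay beyond the median before and after, so the floor could not move either median. An absolute interaction of at least 3 was reached by 19 of the 36 and by 5 of the 21. How many genes passed depended on the tool and the design. DESeq2 called 826, among them 53 of the 57, and limma-trend on log2 CPM called 93, among them all 57, whereas 8 passed when tested against a log2 difference of 1. With same-numbered centre and edge libraries of a phenotype paired as a block, 6 were called, 0 more positive and 6 more negative. The labels do not say whether such libraries share a plant. Deviations from the group means correlated best with the same-numbered edge library for VC1, VC2, VC3, UC1 and UC2, but not for UC3. If such libraries do share a plant, the fit with 6 calls is the one that applies. The majority of more negative calls also depended on the setting, with 429 more positive and 397 more negative in DESeq2, 36 and 31 with library totals only, and 61 and 33 with log2 of the deposited FPKM plus 1.

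Summed over the 36 more negative genes, the level was 265 ± 26.2 CPM, the count scaled to library size, in VC, 1707 ± 63.9 in VE, 1348 ± 170 in UC and 1259 ± 108 in UE (SD, n = 3). The 3 VC libraries ranged from 239.9 to 292.3 CPM and the other 9 from 1135 to 1776 CPM. Summed over the 21 more positive genes it was 937 ± 65.5 CPM in VC, 332 ± 51.9 in VE, 359 ± 6.17 in UC and 438 ± 44.1 in UE. In these sums, in which abundant genes weigh most, VC departed most, low in the first set and high in the second. VE also lay above UC and UE in the first set. Gene by gene, VE was the group farthest from the median of the group means in 9 of the 36, as the highest group, and 6 of the 21, as the lowest. Of all genes tested 14.4% and 15.8% had these profiles. These sums describe genes chosen by the same libraries and are no further evidence.

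Cluster-20123.27358 had the smallest p of the more negative genes. Its VC libraries stood at 0.274, 0.198 and 0.231 CPM and its VE libraries at 19.1, 20.5 and 19.3 CPM. The UC libraries had 10.7, 10.4 and 11 CPM and the UE libraries 11.2, 13.5 and 8.58 CPM. All 3 VC libraries lay below the other 9, VE lay above all the rest, and UC and UE overlapped. The log2 fold change was -6.34 for VC over VE and -0.04 for UC over UE, an interaction of -6.30 (SE 0.29, edgeR adjusted p = 6.51e-06). Pooled over the group, VC held 12 counts, which the SE may not fully reflect. From pooled counts the interaction was -6.38 with a 95% counting interval of -7.22 to -5.54, which covers counting error only. Its effective length, taken from count over FPKM and not the length of the transcript itself, was very low at 25.3 bases.

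Cluster-20123.85164 showed the same profile in a transcript cluster with an effective length of 4929 bases. It had 0.137, 0.132 and 0.416 CPM in VC and 66.0, 81.0 and 94.0 CPM in VE. In unvariegated leaves it had 45.9, 49.2 and 60.8 CPM in UC and 78.4, 67.4 and 61.5 CPM in UE. The lowest library outside VC was 110 times as high as the highest VC library, and UC lay below UE in all 3 libraries. The interaction was -7.88 (SE 0.39, adjusted p = 6.51e-06 in the same edgeR test), and -7.94 from pooled counts, with a 95% counting interval of -8.73 to -7.15 and 13 counts over VC. Its zone difference in unvariegated leaves was -0.41 on the log2 scale.

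Cluster-20123.65146 led the more positive genes. It had 17.9, 27.2 and 13.6 CPM in VC, 0.631, 0.916 and 0.871 CPM in VE, 0.295, 0.206 and 0.237 CPM in UC, and 0.376, 0.199 and 0.204 CPM in UE. It was thus near the detection limit in unvariegated leaves, with 13 counts over UC and 13 over UE, and VC and VE both lay above every unvariegated library. The interaction was 4.65 (SE 0.56, adjusted p = 0.0186 in edgeR), made of 4.59 for VC over VE and -0.06 for UC over UE.

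Cluster-20123.37561 was raised in the variegated centre against a low and nearly even level elsewhere. It had 8.23, 14.6 and 8.73 CPM in VC, 0.981, 0.845 and 1.74 CPM in VE, 1.00, 1.17 and 1.52 CPM in UC, and 1.82, 1.92 and 1.99 CPM in UE. In unvariegated leaves the order was reversed, with all 3 UC libraries below all 3 UE libraries. The interaction was 3.76 (SE 0.48, adjusted p = 0.0249 in edgeR). This call, unlike those of both more negative genes, was lost when VC2, VE1, VE2, UC1, UC2, UE1 or UE3 was left out (adjusted p of 0.0529 to 0.0896 in edgeR, estimates of 3.47 to 3.82). That of Cluster-20123.65146 was lost without VE2, UC1, UC2, UE1 or UE3 (adjusted p of 0.0521 to 0.0664 in edgeR, estimates of 4.33 to 4.82). Over all 25 alternative fits the adjusted p ranged from 3.18e-08 to 0.127 for Cluster-20123.37561 and from 1.24e-07 to 0.132 for Cluster-20123.65146. With same-numbered centre and edge libraries paired as a block, neither gene was called in edgeR. The adjusted p was then 0.1 for Cluster-20123.37561 and 0.0813 for Cluster-20123.65146.

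**Figure D1:**
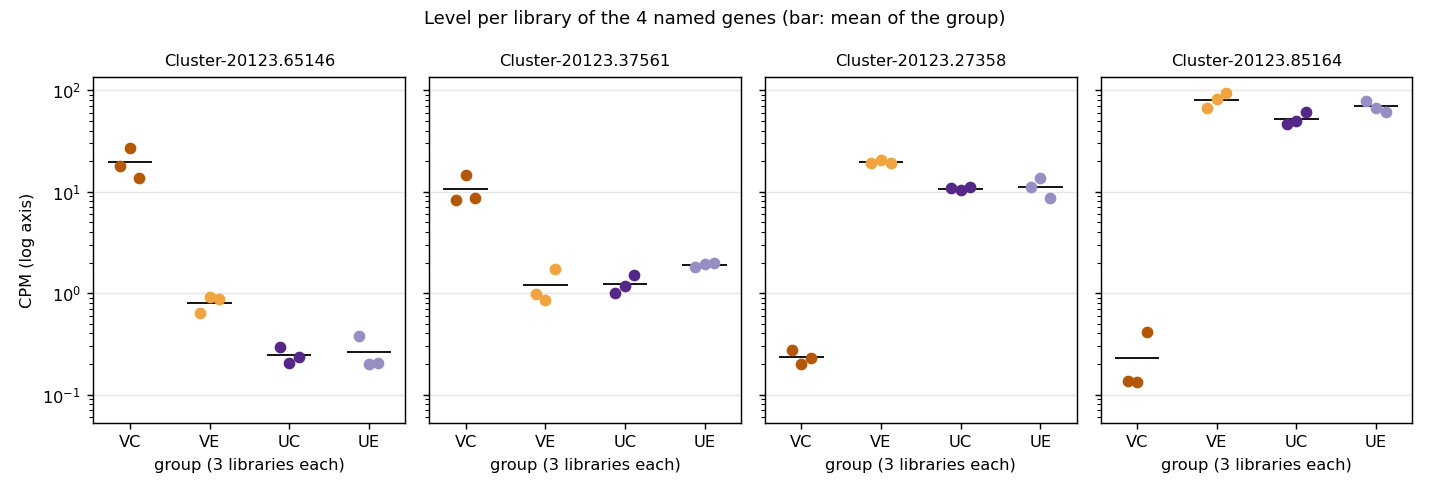
CPM of each library on a log axis for the 4 named genes, with the groups in the order VC, VE, UC and UE and a bar at each group mean. VC stands apart in every panel, above the other 9 libraries in the 2 panels on the left and below them in the 2 on the right, with VC means of 19.6, 10.5, 0.235 and 0.228 CPM.

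The 57 genes fell into 4 main profiles when each was classed by the group whose mean lay farthest from the median of the 4 group means. The largest was a low variegated centre, with 25 of the 36 more negative genes, where 14% of all genes tested had this profile. Its median levels were 0.766 CPM in VC, 19.6 CPM in VE, 16.1 CPM in UC and 14.4 CPM in UE, and VC was at a median of 0.057 times UC. Zone differences within unvariegated leaves had a median of 0.11 on the log2 scale in this class. They ran from -0.78 to 0.97, so they were not small in every gene, while those in variegated leaves ran from -9.61 to -1.02.

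A high variegated edge described 9 of the more negative genes (14.4% of all genes tested). Their median levels were 6.98 CPM in VC, 27.7 CPM in VE, 13.6 CPM in UC and 6.97 CPM in UE. VE was a median of 2.33 times UE. In all 9 the estimate of UC over UE was positive, at 0.03 to 0.96 on the log2 scale, so the 2 zone differences had opposite signs. Of all genes tested 48.5% had opposite signs, and an interaction favours them. In some of the 9 the UC and UE libraries overlapped, and the smallest of these differences was close to 0.

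Among the more positive genes, 13 had a high variegated centre (12.6% of all genes tested), with median levels of 55.1 CPM in VC, 17.2 CPM in VE, 21.2 CPM in UC and 23.4 CPM in UE. These were moderate differences: VC was a median of 2.63 times UC. A low variegated edge marked 6 more positive genes (15.8% of all genes tested), with medians of 8.19 CPM in VC, 2.89 CPM in VE, 4.68 CPM in UC and 7.22 CPM in UE. In these 6 genes VE was a median of 0.356 times UE, and UC over UE was negative throughout, from -1.60 to -0.25 on the log2 scale. Of the remaining 4 genes, 1 each had UC lowest, UC highest, UE lowest or UE highest (12.2%, 12.9%, 8.93% and 9.27% of all genes tested).

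**Figure D2:**
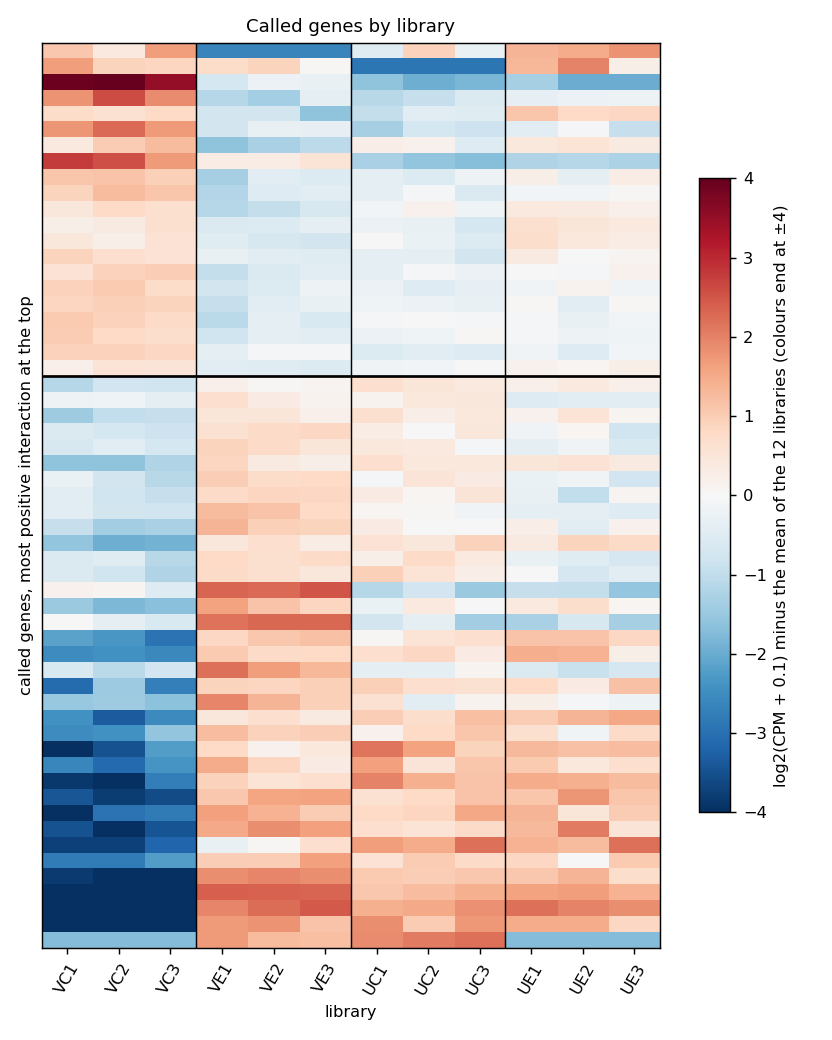
Level of each of the 57 called genes (rows) in the 12 libraries (columns), as log2(CPM + 0.1) minus the gene's mean over the libraries, with red above and blue below that mean. Rows run from the most positive interaction at the top to the most negative at the bottom, and the thick line separates the 21 more positive from the 36 more negative genes. The VC columns are blue in most rows below the line and red in most rows above it.

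The zone difference was larger in size in variegated than in unvariegated leaves for 34 of the 36 more negative and 20 of the 21 more positive genes, where 57.4% of all genes tested had this order. Median log2 fold changes of the more negative genes were -3.22 for VC over VE and 0.16 for UC over UE, and those of the more positive genes 1.54 and -0.35. In none of the 57 genes did both zone differences have the same sign with the smaller one in variegated leaves, a shape that 21.7% of all genes tested had. The zone differences had opposite signs in 44 of the 57, 25 more negative and 19 more positive, where 48.5% of all genes had. The other 13, 11 more negative and 2 more positive, shared a sign and were steeper in variegated leaves, against 29.8% of all genes. An interaction favours opposite signs, so these shares describe the calls and do not test them.

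Group ranges gave the same picture without a model. VC and VE libraries did not overlap in 36 of 36 more negative and 20 of 21 more positive genes, against 19.6% of all genes tested. UC and UE did not overlap in 11 of the 36 and 13 of the 21, against 11% of all genes tested. The 3 VC libraries lay below the other 9 in 24 of the 36 (2.27% of all genes tested) and above them in 14 of the 21 (2.32%). The 3 VE libraries lay above the other 9 in 13 of the 36 (2.75%) and below them in 7 of the 21 (1.69%). Both features are part of what the interaction test selects for.

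The phenotype comparisons within each zone give the same estimates from another side. Median log2 fold changes of the more negative genes were -2.75 for VC over UC and 0.59 for VE over UE, and those of the more positive genes 1.20 and -0.65. VC was below UC with VE above UE in 26 of the 36 more negative genes (17% of all genes tested), and VC above UC with VE below UE in 17 of the 21 more positive genes (17.4%). These are counts of signs, and some of the differences at the edge were close to 0. These comparisons share their libraries with the interaction and add no separate support. Converting to the linear CPM scale turned none of the 57 signs: 36 differences of differences were negative and 21 positive there as well.

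**Figure D3:**
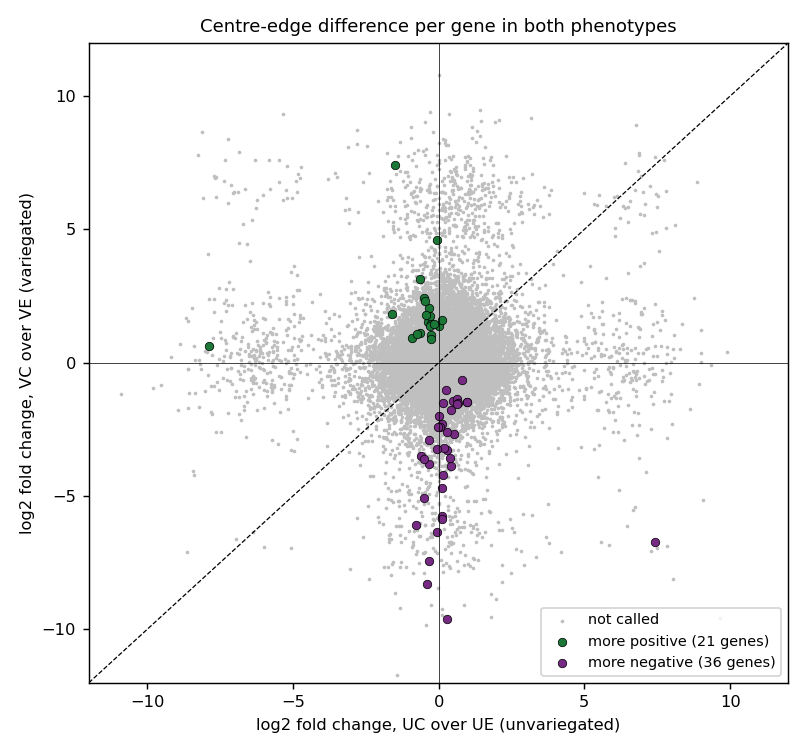
Log2 fold change of centre over edge for each tested gene in unvariegated leaves (horizontal axis, UC over UE) and variegated leaves (vertical axis, VC over VE), with called genes coloured by the direction of the interaction. Points on the dashed diagonal have equal zone differences in both phenotypes. The 36 more negative genes lie below it and the 21 more positive above it. Most of them lie farther from 0 on the vertical than on the horizontal axis. The more positive genes have a median of only 1.54 on the vertical axis, and the more negative genes -3.22.

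Some calls rest on a complete absence of counts in a group. In 4 of the 57 genes at least 1 group had 0 counts in all 3 libraries, which allows up to 0.057 to 0.0691 CPM at a floor of 3 counts over the group. A more negative gene had 0, 0 and 0 counts in VC against 92, 99 and 65 in VE, 124, 58 and 140 in UC and 88, 84 and 68 in UE. With VC set at the floor, its interaction was at most -7.03 on the log2 scale. A more positive gene was missing from VE, with 18, 11 and 41 counts in VC, 6, 16 and 9 in UC and 24, 25 and 41 in UE. Another was missing from UC, with 33, 19 and 27 counts in VC, 16, 18 and 10 in VE and 28, 42 and 15 in UE.

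The fourth of these genes had a fully crossed pattern. It had 0 counts in every VC and every UE library, against 14, 10 and 10 counts in VE and 19, 19 and 30 in UC, so it was detected at the edge of variegated and in the centre of unvariegated leaves. It was the only called gene outside the main assembly group, which held the other 56. The share of all tested genes in that group was not computed, so nothing follows from this count. All 4 genes were singled out after their values were seen, and their fitted fold changes depend on the added prior count. The count estimates share out reads that match several clusters, so genes with near-identical copies are uncertain as separate units, and no sequence was used here to find such copies.

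Some of the 57 genes may not be separate transcripts. Among them were 5 pairs of genes with consecutive identifiers, and in all 5 pairs both members were more negative, for example with interactions of -6.30 and -7.11 or -2.89 and -2.45. Cluster-20123.27358 belongs to the first of these pairs, and its partner had means of 0.747 CPM in VC, 135 CPM in VE, 62.5 CPM in UC and 77.9 CPM in UE. Only called genes with directly consecutive identifiers were counted, so related clusters may be more numerous than these pairs. Whether the members of a pair share reads was not tested.

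The calls that did not depend on any single library were all of genes low in the variegated centre. Of the 36 more negative genes, 8 were called with every library left out in turn, and 12 were called in at least 6 of these 12 fits. Of the 21 more positive genes, none was called in all 12 fits and 1 in at least 6. All 8 stable genes had VC below the other 9 libraries, with a gap of at least 4.58 times between the highest VC and the lowest other library where VC had counts. Their VC means lay between 0 and 7.76 CPM, against 5.92 to 135 CPM in VE, 4.07 to 83.3 CPM in UC and 4.86 to 119 CPM in UE. Their unvariegated zone differences were -0.78 to 0.30 on the log2 scale.

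Leaving out a library changed how many genes passed far more than it changed the estimates. In place of 57, the omission of VC1, VC2 and VC3 gave 44, 15 and 33 genes, that of VE1, VE2 and VE3 gave 15, 9 and 24, that of UC1, UC2 and UC3 gave 13, 10 and 33, and that of UE1, UE2 and UE3 gave 18, 64 and 11. Of the 57 genes, 9 to 36 were among the calls in these fits. The sign of the interaction was the same as with all libraries for 57 of 57 genes in each of the 12 fits. The choice of the 57 by their adjusted p makes a turned sign unlikely, so this does not test them. With VE1 and UE1 both left out 5 genes were called, all more negative, and 4 of them were among the 57. No more positive gene was called without VE2, UC2 or UE3, and without UC1 or UE1 the only such call, 1 in each fit, was not among the 21.

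**Figure D4:**
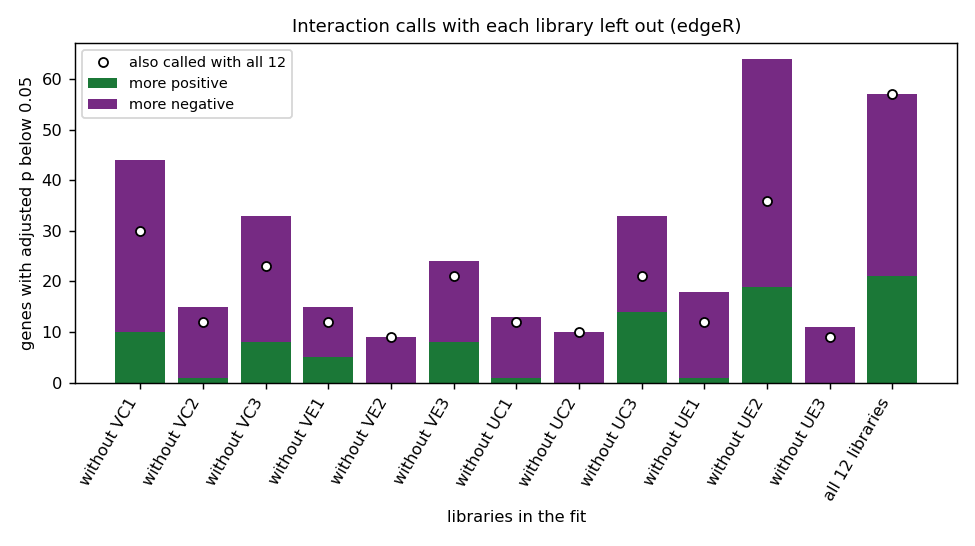
Number of genes with adjusted p below 0.05 for the interaction when each library is left out and, at the right, with all 12 libraries. Bars are split into more positive (green, bottom) and more negative genes (purple, top), and circles mark how many of the calls are among the 57. Totals run from 9 without VE2 to 64 without UE2, and the more positive part is at 0 in 3 of the bars.

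Beyond the 57 genes, 130 passed an adjusted p of 0.1 (0.22% of those tested), and 5274 had an unadjusted p below 0.05 in edgeR, or 8.91%. These were nearly balanced, with 2753 more negative (4.65%) and 2521 more positive (4.26%). Calls were more frequent among abundant genes: of the 13784 genes averaging 10 CPM or more 0.232% were called, 21 more negative and 11 more positive, against 0.0777% between 1 and 10 CPM and 0.0175% under 1 CPM.

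In the balanced 2 by 2 layout the interaction held a smaller mean share of the variation between libraries than zone or phenotype. It took a mean of 9.69% of a gene's total sum of squares of log2 CPM, where an even spread over the 11 degrees of freedom gives 9.09%. Zone took 10.4%, phenotype 22.3% and the residual 57.6%, where an even spread gives the residual 72.7% over its 8 degrees of freedom. Per degree of freedom the interaction thus took more than the residual. For genes averaging 10 CPM or more the shares were 10.3% for the interaction, 11.3% for zone, 30.5% for phenotype and 47.9% for the residual. The interaction was the largest of the 3 terms in 18.9% of these abundant genes and phenotype in 60.3%.

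The data also bound the interaction for many genes. By limma-trend on log2 CPM, the median standard error was 0.575 for the interaction and 0.407 for VC over VE, since the interaction sums the error of 4 group means. For genes averaging 10 CPM or more it was 0.272 and 0.193. Of these 13784 genes, 61.6% had a 95% interval of the interaction wholly inside 1 log2 unit in either direction, and 93.5% inside 2 units. Over all genes tested the shares were 20.3% and 57%. These intervals are per gene and not adjusted for the number of genes. For most of the genes tested a 2-fold difference between the phenotypes' gradients was thus not excluded.

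Effective length moved with the interaction across the whole table. Genes with an effective length under 300 bases had a median interaction of -0.33 on the log2 scale, those of 300 to 1000 bases -0.05 and those over 1000 bases 0.09. In genes with an effective length under 300 bases the median was -0.07 for VC over VE and 0.23 for UC over UE. Relative to the median library, effective lengths were shifted by 22.6 bases in UC1, 20.3 in UC2 and 7.2 in UC3, against -4.3 to 1 in the other 9. Of the 57 called genes 5 had an effective length under 300 bases, where 15.6% of all genes tested had. That is 0.0541% of the genes in this class, against 0.0962% of all genes. With the length trend removed 50 genes were called, 32 more negative and 18 more positive, of which 46 were among the 57.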

How the data were processed

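Messenger RNA of 12 leaf libraries, 3 in each of VC, VE, UC and UE, was measured, with groups taken from the sample titles. The authors deposited expected counts and FPKM for 185746 genes. The submitters' processing notes name CASAVA 1.8, Bowtie2 and RSEM; the assembler and reference are not given in the sources used here. Of the deposited expected counts 21.3% were not whole, and all were rounded. Deposited FPKM values, scaled by the authors to gene length and library total, served for alternatives and for effective lengths (count over FPKM).

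filterByExpr (minimum count 10, minimum total 15) kept 59225 genes with 98.9% of the counts. The interaction was tested with edgeR 4.0.16 (R 4.3.3, limma 3.58.1): TMM scaling, robust glmQLFit and glmQLFTest on 4 group means, Benjamini-Hochberg adjusted p below 0.05. CPM use TMM-scaled library sizes. SE is the absolute log2 estimate over the square root of F. The fit was also run on simulated counts with changes set in VC alone and no pairing of libraries. That run does not bear on the paired design. Named genes are the 2 with the smallest p in each direction at a mean of at least 1 CPM. Intervals are at the 95% level. The comparison and its rules were chosen with earlier results of these data known. Alternatives were RLE and unscaled totals, other filters, DESeq2 1.42.0, limma-trend on log2 CPM (prior count 2) or on log2 FPKM plus 1 or 0.1, replicate blocks, a minimum difference, a looser threshold, removal of the length trend, and libraries left out.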

Additional observations from a re-analysis of the deposited data

Results flagged for a closer look

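A difference of an effect between groups was found by the test of the difference itself, the interaction, for 57 genes, and the 4 named genes are among them. The centre-edge difference on the log2 scale, variegated minus unvariegated, was 4.65 for Cluster-20123.65146, 3.76 for Cluster-20123.37561, -6.30 for Cluster-20123.27358 and -7.88 for Cluster-20123.85164. No explanation was tested. Groups of 3 libraries are too small for a check of single outlying values.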

How the results depend on the processing

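The number of genes called depended strongly on the method. All 57 kept their sign in each of the 25 alternative fits. Genes chosen from the same libraries for a difference far beyond its error would seldom turn sign, so this is no separate support. The calls were 319 with no low-count filter (175 more positive, 144 more negative), 826 with DESeq2 (429 and 397), 93 with limma-trend on log2 CPM (33 and 60), 94 with log2 FPKM plus 1 (61 more positive), 130 at an adjusted p below 0.1 (51 and 79), 8 when tested against a log2 difference of 1 (0 and 8), and 5 after VE1 and UE1 were dropped together (0 and 5). More positive calls numbered 36 with library totals only and 35 with FPKM plus 0.1, beside 31 more negative in each. These settings and FPKM plus 1 moved the median of all genes by 0.22, 0.25 and 0.17. DESeq2 and the fit with no low-count filter, where more positive calls also outnumbered more negative ones, moved it by 0.017 and -0.077. Why the balance of directions changed was not tested. Of the 57, DESeq2 called 53, limma-trend on log2 CPM 57 and either FPKM setting 37. Only 4 genes, all more negative, were called in every one of the 25 fits. RLE size factors, a filter of 1 CPM and removal of the length trend gave 56, 74 and 50. With 1 library left out, calls ranged from 9 to 64, more positive ones from 0 to 19 and more negative ones from 9 to 45. For Cluster-20123.85164 the estimate was -3.50 with FPKM plus 1, which shrinks low levels, and for Cluster-20123.37561 it was 2.43.

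With the replicate number as a block shared by all groups 41 genes were called, 7 of them more positive and 34 more negative, and 31 were among the 57. With the block nested in phenotype, which pairs same-numbered centre and edge libraries, 6 were called, 0 more positive and 6 more negative. Deviations of same-numbered centre and edge libraries from their group means correlated across genes with r of 0.33, 0.11 and 0.46 in variegated leaves and 0.41, 0.31 and -0.03 in unvariegated leaves. For VC1, VC2, VC3, UC1 and UC2 the same-numbered edge library was the best match among the 3 edge libraries of that phenotype. For UC3 it was UE2. Same-numbered libraries of different phenotypes correlated with r of -0.18 to 0.11. The labels do not say that the numbers mark shared plants, so the pairing was not used in the fit that gave the 57. If the numbers do mark shared plants, the nested fit with 6 calls is the one that applies.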

Other observations

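Genes with no counts in a whole group were not rare among those tested, and few of them were called. All 3 libraries of exactly 1 group were at 0 for 194 genes in VC, 459 in VE, 326 in UC and 245 in UE. With at least 5 counts in each of the other 9 libraries, a limit set after the values were seen, 5 genes were missing from VC, 7 from VE, 4 from UC and 2 from UE. The interaction was called for 1, 1, 1 and 0 of these. Crossed absences were fewer: 12 genes were at 0 in both VC and UE, of which 1 was called, and 36 in both VE and UC, of which none was called. Whether a group at 0 lies within counting error was not tested for these genes, and it can where the other groups hold few counts.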
